A study of Mus musculus with 6 samples.

Results

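The chloride channel gene Clcn1, the sodium pump beta family genes Atp1b1, Atp1b2, Atp1b3 and Atp1b4, the pump regulator Fxyd1 and the cotransporter Slc12a2 were followed in mouse muscle. Each was taken by its gene symbol, which gave 7 of the 27131 genes in the table, all 7 with 1 entry each. Sequencing was done on RNA of the levator ani/bulbocavernosus (LA/BC), an androgen-sensitive muscle complex of the pelvic floor, flash frozen from mice at 14 weeks of age. The groups were 3 wild-type mice (WT) and 3 mice with the genotype label 113Q, which model SBMA by a knock-in. SBMA, or spinal and bulbar muscular atrophy, weakens muscle and kills motor neurons, and in people it comes from a lengthened glutamine tract in the androgen receptor. All mice ate standard chow, the labels name no treatment, and for strain and sex the sources used here give nothing. Each library came from its own mouse.

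ClC-1, the product of Clcn1, is a chloride channel of the skeletal muscle membrane that holds the fibre near its resting potential, and loss of it causes myotonia, a delay in relaxation from repeated firing. The sodium pump restores sodium and potassium gradients after each action potential. It joins a catalytic alpha subunit to a glycosylated beta subunit that carries it to the membrane, and small FXYD proteins tune its affinity for ions. The cotransporter NKCC1, made from Slc12a2, brings chloride into the cell together with sodium and potassium, and so works against the low internal chloride that ClC-1 relies on.

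The promoters of 5 of the 7 genes were found in the RefSeq table for GRCm38.p6, the assembly behind mm10. Each entry holds 250 bases before the start of the gene and 50 after it. Shown are Clcn1 and Atp1b1, the genes with the largest falls, and Atp1b3 and Atp1b4, beta family genes that moved less. They lie at chr6:42286435-42286734 (plus strand), chr1:164458306-164458605 (minus strand), chr9:96364382-96364681 (minus strand) and chrX:38315872-38316171 (plus strand). Capitals mark E-boxes (CANNTG) and, in Clcn1, the run of letters that matches the MEF2 motif. Both motifs read the same on the 2 strands.
Clcn1: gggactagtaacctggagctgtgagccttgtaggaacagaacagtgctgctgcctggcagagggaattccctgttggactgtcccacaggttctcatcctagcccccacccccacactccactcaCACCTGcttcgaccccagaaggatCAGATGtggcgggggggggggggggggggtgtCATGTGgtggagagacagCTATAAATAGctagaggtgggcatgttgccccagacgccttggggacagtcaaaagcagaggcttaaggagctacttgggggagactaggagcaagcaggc
Atp1b1: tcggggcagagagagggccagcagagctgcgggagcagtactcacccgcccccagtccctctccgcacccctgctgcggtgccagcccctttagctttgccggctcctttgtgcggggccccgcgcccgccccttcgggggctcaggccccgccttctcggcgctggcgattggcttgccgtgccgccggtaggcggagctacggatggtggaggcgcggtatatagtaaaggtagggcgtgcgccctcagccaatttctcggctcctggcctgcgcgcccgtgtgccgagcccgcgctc
Atp1b3: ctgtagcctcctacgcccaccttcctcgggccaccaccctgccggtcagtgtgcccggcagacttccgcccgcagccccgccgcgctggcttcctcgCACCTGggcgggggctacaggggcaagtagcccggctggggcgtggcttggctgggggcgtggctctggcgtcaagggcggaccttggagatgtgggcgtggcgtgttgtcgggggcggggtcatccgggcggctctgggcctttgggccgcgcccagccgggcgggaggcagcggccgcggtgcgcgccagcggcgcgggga
Atp1b4: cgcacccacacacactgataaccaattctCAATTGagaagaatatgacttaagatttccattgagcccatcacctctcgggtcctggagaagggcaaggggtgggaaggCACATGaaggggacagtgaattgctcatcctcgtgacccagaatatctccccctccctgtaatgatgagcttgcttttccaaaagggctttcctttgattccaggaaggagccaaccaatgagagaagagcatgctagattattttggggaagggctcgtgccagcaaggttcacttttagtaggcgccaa
The Clcn1 window held 3 E-boxes and 1 MEF2 match, CTATAAATAG, which begins 51 bases before the gene start and contains a TATAAA match. It also held 1 AGAACA, a half-site of the androgen response element, counted on both strands. Among all 32851 promoters of the same length, 72.3% held an E-box, 3.19% a MEF2 match, 19.0% an AGAACA and 13.6% a TATAAA. The Atp1b1 window was 71.0% G and C, with 0 E-boxes and 2 GC boxes (GGGCGG, both strands), and the Atp1b3 window shown was 76.0% G and C, with 1 E-box and 6 GC boxes, a motif present in 35.7% of promoters. The table holds another Atp1b3 start, with the window chr9:96363666-96363965, which had 1 E-box and 0 GC boxes. The Atp1b4 window was 49.0% G and C and held 2 E-boxes. These letter matches describe the windows and carry no measurement of binding.

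The libraries held 43581087 to 73873481 estimated counts. Levels are CPM, counts relative to library size after scaling with TMM factors, which were 0.768 to 0.794 in WT and 1.26 to 1.32 in 113Q. With library totals alone the median log2 fold change over all genes moved by 0.72, so each change is given relative to the other genes. All 12 myofibre markers were present and all 12 fell, with a summed level of 204644 to 228051 CPM in WT mice and 48928 to 58022 CPM in 113Q mice. Their falls were uneven, from 1.77 times for Neb and 1.90 times for Ttn to 23.4 times for Myh1. The median log2 fold change of these markers was -1.81, and -1.09 with library totals alone. Epithelial and gland markers stood apart in WT mouse 2 and 113Q mice 2 and 3, where 14 markers summed to 59.8 to 110 CPM against 3.20 to 5.16 CPM in the other libraries. The epithelial gene Epcam was at 0 in WT mouse 1 and 113Q mouse 1.

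Of the 7 genes, 5 were lower in 113Q, 0 were higher and 2 did not pass. The test was edgeR's quasi-likelihood test with Benjamini-Hochberg adjustment over all genes, at a threshold of 0.05. Among all 16960 genes tested, 18.1% were lower, 16.5% were higher and 34.6% passed in either direction. This split of 3078 lower and 2791 higher genes became 710 and 11015 with library totals alone. At an unadjusted p below 0.05 again 5 were lower and 0 higher, and 0 were higher with DESeq2 or limma voom. The count of lower genes was 4 with limma voom, 3 with upper-quartile factors, 3 without WT mouse 1, 2 or 3 or 113Q mouse 1, and 4 without 113Q mouse 2 or 3. With library totals alone, 2 were lower (Clcn1 and Atp1b1) and 2 higher (Atp1b3 and Fxyd1). In 6 of the 7 genes the groups did not overlap, against 49.9% of all genes, and 5 of these were lower, against 24.8%. The median log2 fold change was -0.79 over the 7 genes and 0.013 over all genes, and with library totals alone these were -0.075 and 0.73. Clcn1, Atp1b1 and Slc12a2 carried the larger falls, while the falls of Atp1b4 and Fxyd1 were small and changed sign with library totals alone. In bulk muscle, fewer cells of a type and less RNA per cell cannot be told apart.

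**Figure D1:**
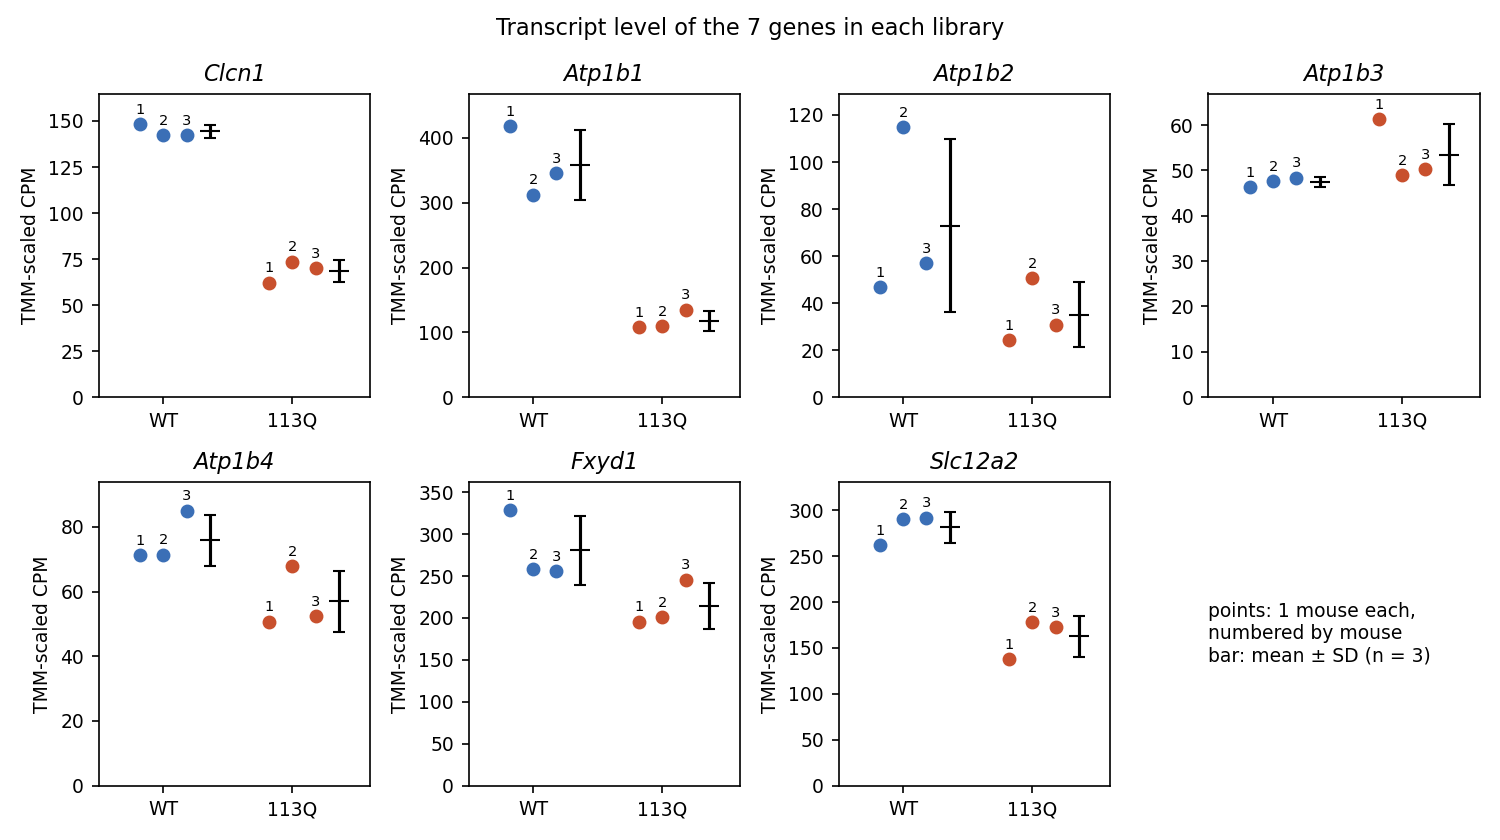
TMM-scaled CPM of each of the 7 genes (y axis, from 0) in WT and 113Q, 1 numbered point per mouse, with the mean and SD (n = 3) beside each group. The groups stand far apart for Clcn1, Atp1b1 and Slc12a2, lie close together for Atp1b3, Atp1b4 and Fxyd1, and overlap for Atp1b2.

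Clcn1 lies on chromosome 6 from 42286685 to 42315756 on the plus strand of mm10. It was at 148, 142 and 142 CPM in WT mice and at 62.1, 73.5 and 70.1 CPM in 113Q mice. Every 113Q mouse was well below every WT mouse, and the WT mice were nearly equal. The mean went from 144 ± 3.51 CPM (SD, n = 3) to 68.6 ± 5.84 CPM (n = 3), a log2 fold change of -1.07 ± 0.0854 (SE), or 2.11 times lower (edgeR adjusted p = 7.45e-05). Scaling by library totals alone left it lower, by a smaller size of -0.36 (edgeR adjusted p = 0.00363). The estimates rest on 5011 to 7533 counts per library. An exon of Fam131b, on the other strand, shares 445 bases with Clcn1 exons. Fam131b was at 8.27 ± 2.38 CPM in WT mice and 4.68 ± 1.26 CPM in 113Q mice, far below Clcn1. ClC-1 is known to be regulated by splicing, and gene-level counts do not show which Clcn1 transcripts were made.

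Atp1b1 encodes the beta1 subunit, which in rat muscle is the main beta of slow and oxidative fibres. It lies on chromosome 1 from 164437109 to 164458355 on the minus strand. Its level was 418, 312 and 345 CPM in WT mice and 108, 109 and 135 CPM in 113Q mice, so the highest 113Q mouse was less than the lowest WT mouse by a wide margin. The mean fell from 358 ± 54.2 to 117 ± 15.3 CPM, a log2 fold change of -1.61 ± 0.137, or 3.05 times (edgeR adjusted p = 0.000103), and it had the largest fall of the 7 genes. Scaled by library totals alone it fell by 0.89 on the log2 scale (edgeR adjusted p = 0.000363). Exons of Nme7 on the other strand share 575 bases with it, and Nme7 was at 8.59 ± 1.44 CPM in WT mice and 6.25 ± 0.609 CPM in 113Q mice.

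Atp1b2 encodes the beta2 subunit, which in rat muscle is found mostly in fast glycolytic fibres. It was at 46.7, 115 and 56.9 CPM in WT mice and 24.1, 50.5 and 30.8 CPM in 113Q mice. Mouse 2 was the highest of its group in both genotypes, and the groups overlapped. The mean was 72.8 ± 36.8 CPM in WT mice and 35.1 ± 13.7 CPM in 113Q mice, and the log2 fold change of -1.05 had a 95% interval from -2.25 to 0.14 (edgeR adjusted p = 0.15). Without WT mouse 2 it was -0.56 (edgeR adjusted p = 0.284). It passed when libraries with epithelial transcripts were given a term of their own (-1.30, edgeR adjusted p = 0.00579) and among the libraries without them (-1.10, edgeR adjusted p = 0.00452), where 113Q is 1 mouse assumed to vary like the WT mice. Over these and the other alternatives its adjusted p ranged from 0.00166 to 0.535. Whether the epithelial transcripts play a part in these values was not tested.

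Atp1b3, a beta subunit made in many tissues, was at 46.3, 47.6 and 48.4 CPM in WT mice and 61.2, 48.9 and 50.3 CPM in 113Q mice. The 113Q mice were all above the WT mice, with mouse 1 the farthest, but by little. The log2 fold change of 0.17 had a 95% interval from -0.05 to 0.40 (edgeR adjusted p = 0.212). Under library totals alone it was 0.90 and passed as higher (edgeR adjusted p = 0.000162). With TMM scaling the interval leaves room for a rise of up to 0.40 on the log2 scale and no fall near that of Atp1b1.

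Atp1b4 is an X-linked gene of the beta family whose protein, in placental mammals, stays in the nuclear envelope of muscle and is not a working part of the pump. It was at 71.2, 71.4 and 85.0 CPM in WT mice and 50.7, 67.8 and 52.3 CPM in 113Q mice. The groups did not overlap, with 113Q mouse 2 just under the WT mice. The log2 fold change was -0.41 ± 0.130, or 1.33 times lower (edgeR adjusted p = 0.0382), but it was 0.30 with library totals alone (edgeR adjusted p = 0.0661). The call was lost without WT mouse 1, 2 or 3 (edgeR adjusted p = 0.062, 0.0535 and 0.122) and without 113Q mouse 1 or 3 (0.129 and 0.14), and it stayed without 113Q mouse 2 (0.0122). Over all alternatives the adjusted p ranged from 0.0108 to 0.342. Snw1, which encodes a nuclear protein that binds the Atp1b4 product, had a log2 fold change of -0.29 (edgeR adjusted p = 0.0413), which was 0.43 and passed as higher with library totals alone (edgeR adjusted p = 0.00307). Its call was also lost without WT mouse 1 or 2 and without any 1 of the 113Q mice. Smad7, whose promoter the Atp1b4 protein is known to act on, was at -0.26 (edgeR adjusted p = 0.312).

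Because a share within a library does not depend on scaling between libraries, the beta family was also read as shares of its summed transcripts per kilobase of exon. Atp1b1 made up 74.0%, 60.9% and 67.3% of the family in WT and 44.5%, 42.0% and 51.6% in 113Q, a mean of 67.4 ± 6.53% against 46.1 ± 4.99%. Atp1b3 took 10.6%, 12.0% and 12.2% in WT and 32.6%, 24.2% and 24.8% in 113Q, with the mean going from 11.6 ± 0.874% to 27.2 ± 4.69%. For both genes the 113Q mice lay apart from the WT mice. The Atp1b4 share was 9.24% to 12.2% in WT and 14.7% to 19.1% in 113Q, and the Atp1b2 share was 10.5 ± 5.65% and 10.3 ± 3.78%. An exact permutation test (two-sided, over libraries) gave p = 0.1 for Atp1b1, Atp1b3 and Atp1b4 and p = 1.0 for Atp1b2, and with 3 against 3 mice it cannot go below 0.1. The 4 shares of a library sum to a fixed total, so they are not independent. The TMM-scaled sum of the family went from 172 ± 9.83 CPM per kilobase in WT to 82.7 ± 3.51 in 113Q. Atp1b3 itself was at 19.8 ± 0.442 and 22.4 ± 2.83 CPM per kilobase, so its larger share is of a smaller total.

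**Figure D2:**
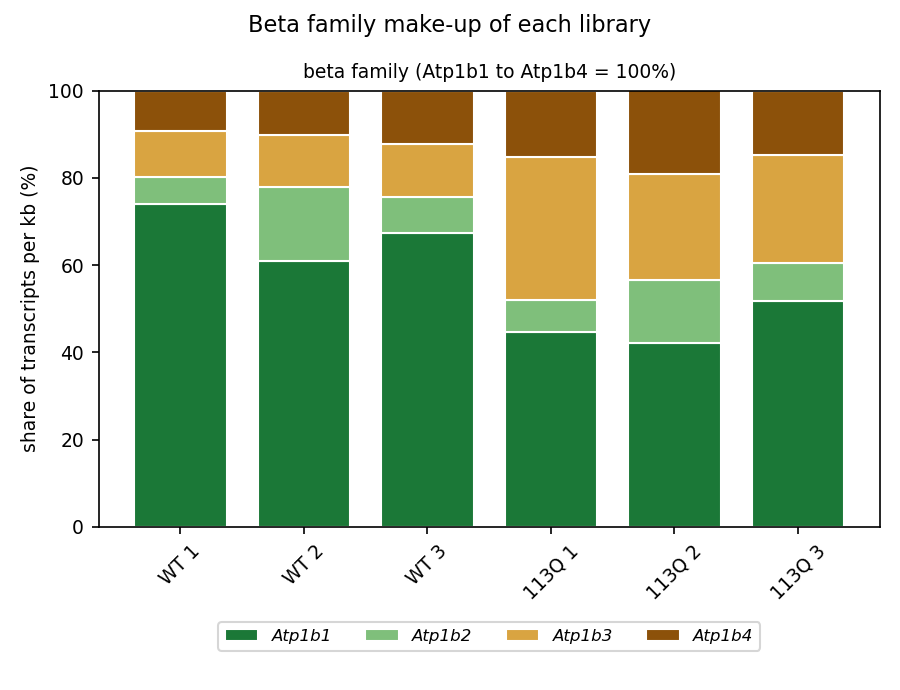
Share of each beta family gene in the family's summed transcripts per kilobase of exon (y axis, percent) in each library (x axis, 1 bar per mouse). In 113Q the Atp1b1 segment shrinks to 42.0% to 51.6% and the Atp1b3 segment grows to 24.2% to 32.6%. Bars show shares and not levels, and the TMM-scaled sum of the family was lower in 113Q.

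Fxyd1 encodes phospholemman, the FXYD protein of heart and skeletal muscle, which restrains the pump until it is phosphorylated. It was at 328, 258 and 255 CPM in WT mice and 196, 201 and 245 CPM in 113Q mice. WT mouse 1 stood above the other WT mice and 113Q mouse 3 reached close to them, without overlap. The log2 fold change was -0.39 ± 0.130, or 1.31 times lower, at an edgeR adjusted p = 0.0488 that lies just under the threshold. Under library totals alone it was 0.33 and passed as higher (edgeR adjusted p = 0.0405). The call was lost without WT mouse 1, 2 or 3 (edgeR adjusted p = 0.134, 0.0501 and 0.0569) and without 113Q mouse 1 or 2 (0.149 and 0.154), and it stayed without 113Q mouse 3 (0.0354). With limma voom it was lost as well (adjusted p = 0.0612), and over all alternatives the adjusted p ranged from 0.013 to 0.299.

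Slc12a2 lies on chromosome 18 from 57878678 to 57946821 on the plus strand. It was at 262, 290 and 292 CPM in WT mice and 137, 178 and 172 CPM in 113Q mice. All 113Q mice were below all WT mice, and 113Q mouse 1 was the lowest. The mean fell from 281 ± 16.9 to 163 ± 21.9 CPM, a log2 fold change of -0.79 ± 0.112, or 1.73 times (edgeR adjusted p = 0.00111). Under library totals alone it was -0.075 and did not pass (edgeR adjusted p = 0.535). Slc12a2 is also known from secretory epithelium, and 2 of the 3 113Q libraries held epithelial transcripts. Among libraries without them the log2 fold change was -1.01 (edgeR adjusted p = 0.00367, with 113Q a single mouse), and among libraries with them -0.73 (edgeR adjusted p = 0.00194, with WT a single mouse). Smooth muscle and pericyte markers summed to 750 to 1251 CPM in WT mice and 1740 to 3182 CPM in 113Q mice. Of these 10 markers, all above 0 in each library, 2 were higher (Acta2 and Abcc9) and 0 lower. Most of that sum's increase lay in the contractile genes Acta2, Myh11, Tagln and Cnn1. The pericyte genes Rgs5, Pdgfrb and Kcnj8 had means of 48.8, 46.4 and 21.0 CPM in WT mice and 52.3, 40.5 and 19.1 CPM in 113Q mice. Abcc9 had means of 284 CPM in WT mice and 370 CPM in 113Q mice, and which cells made it was not tested. All 10 endothelial markers fell, with a median log2 fold change of -0.62 that became 0.10 with library totals alone, and their sum was 514 to 640 CPM in WT mice and 357 to 370 CPM in 113Q mice. The part of these cells in the 7 genes was not tested.

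**Figure D3:**
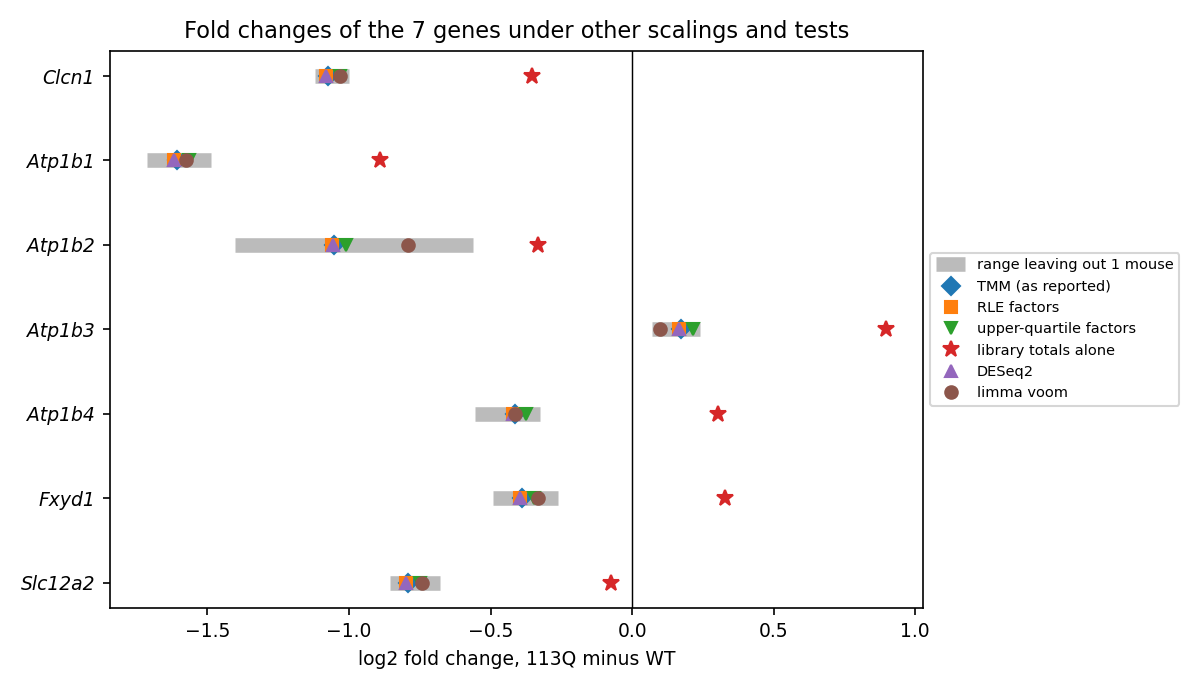
Log2 fold change of 113Q minus WT (x axis) of each of the 7 genes with 6 settings (symbols: TMM, RLE or upper-quartile factors in edgeR, library totals alone, DESeq2, limma voom), with the range when 1 mouse is left out (grey bars). Clcn1 and Atp1b1 stay below 0 under each of these, while Atp1b4 and Fxyd1 move from -0.41 and -0.39 to 0.30 and 0.33 with library totals alone.

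Per kilobase of exon, Fxyd1 and Atp1b1 were the most abundant of the 7 transcripts in WT, at 128 ± 18.9 and 116 ± 17.6 CPM per kilobase. Their ranges overlapped, though within each WT mouse Fxyd1 was above Atp1b1. Clcn1 and Slc12a2 followed at 26.6 ± 0.647 and 25.8 ± 1.55 CPM per kilobase and overlapped each other. Atp1b3, Atp1b4 and Atp1b2 were at means of 19.8, 18.1 and 17.8 CPM per kilobase, an order that lay within the spread of Atp1b2, whose mice ranged from 11.4 to 28.1. In 113Q the order was Fxyd1 at 98.0 ± 12.5, Atp1b1 at 38.1 ± 4.96, Atp1b3 at 22.4 ± 2.83, Slc12a2 at 14.9 ± 2.00, Atp1b4 at 13.5 ± 2.25, Clcn1 at 12.6 ± 1.07 and Atp1b2 at 8.60 ± 3.36 CPM per kilobase. The ranges of Slc12a2, Atp1b4 and Clcn1 overlapped there, though within each 113Q mouse Slc12a2 was above Atp1b4 and Clcn1. The levels depend on the length used: divided by the longest transcript, Slc12a2, Clcn1 and Atp1b4 stood apart in 113Q, at means of 24.9, 19.3 and 13.5 CPM per kilobase, and Fxyd1 was at 420 CPM per kilobase in WT.

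Among 6 FXYD genes tested of 7, 1 rose, 1 fell and 4 did not pass. Over all genes tested 16.5% rose and 18.1% fell, the background for this list and those below. Fxyd1 was the one that fell, and Fxyd6, a regulator known mainly from brain, rose from 16.9 ± 0.574 to 31.5 ± 4.28 CPM (edgeR adjusted p = 0.000681). Fxyd3, known from epithelium, was at 1.04, 2.77 and 0.809 CPM in WT mice and 1.07, 7.43 and 8.74 CPM in 113Q mice, high in the libraries with epithelial transcripts, and did not pass (edgeR adjusted p = 0.168). Fxyd5, also an epithelial regulator, was at 13.4 ± 3.78 CPM in WT mice and 10.1 ± 1.41 CPM in 113Q mice (edgeR adjusted p = 0.164). When scaled by library totals alone, 4 FXYD genes rose and 0 fell. Most genes rose with that scaling, and the median log2 fold change was 0.92 for the list and 0.73 over all genes.

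In the CLC family and its accessory subunits, 9 of the 12 listed genes were tested, and Clcn1 was the 1 that fell. The 2 that rose were Clcn7, the lysosomal chloride-proton exchanger, from 39.0 ± 1.05 to 51.4 ± 1.53 CPM (edgeR adjusted p = 0.0036), and its partner Ostm1, from 23.6 ± 3.29 to 38.8 ± 1.19 CPM (edgeR adjusted p = 0.00171). The other 6 did not pass, among them the endosomal exchanger Clcn4-2 with a log2 fold change of 0.17 (edgeR adjusted p = 0.127). The list's median log2 fold change was 0.19. With library totals alone 7 rose and 1 fell, and the list's median was 0.91 beside 0.73 over all genes.

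Among other chloride and anion channels, 7 of 23 tested rose, 2 fell and 14 did not pass, with a median log2 fold change of 0.25. Those that fell were Ano5, an anoctamin whose loss causes muscular dystrophy in people, from 309 ± 14.9 to 188 ± 19.9 CPM (edgeR adjusted p = 0.000963), and Clic5, from 236 ± 40.7 to 146 ± 3.91 CPM (edgeR adjusted p = 0.00328). Both lost the call with library totals alone and lay at 0.0070 and 0.034. The bestrophin Best3 rose 2.48 times and Lrrc8b, a subunit of the volume-regulated anion channel, 2.44 times (edgeR adjusted p = 0.00142 and 0.00192), from low levels of 1.86 ± 0.171 and 1.24 ± 0.146 CPM. Of the list, 15 rose and 0 fell with library totals alone, with a median of 0.97 beside 0.73 over all genes.

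Of 7 tested genes of the cation-chloride cotransporter family, Slc12a2 was the 1 that fell. The 1 that rose was Slc12a4, a potassium-chloride cotransporter that lets chloride out, from 19.6 ± 3.97 to 26.8 ± 1.74 CPM (edgeR adjusted p = 0.0403). The Slc12a4 call was lost without WT mouse 1 or 3 and without any 1 of the 113Q mice. Slc12a8 and Slc12a5 had log2 fold changes of 1.52 and -0.53 and did not pass (edgeR adjusted p = 0.109 and 0.12). Here 5 rose and 0 fell with library totals alone, with a median of 0.76 beside 0.73 over all genes. Among 5 kinases upstream of these transporters, Stk39, which phosphorylates NKCC1, rose from 3.84 ± 0.718 to 7.38 ± 1.59 CPM (edgeR adjusted p = 0.0116, lost without 113Q mouse 3). Wnk2 fell from 156 ± 9.61 to 107 ± 21.2 CPM (edgeR adjusted p = 0.0183), a call lost without WT mouse 2 or 113Q mouse 3, and it was at 0.18 with library totals alone (edgeR adjusted p = 0.225). Of these kinases 3 rose and 0 fell with library totals alone, with a median of 0.78 beside 0.73 over all genes. The other 3 did not pass in the TMM-scaled test, among them Oxsr1 and Wnk4, with log2 fold changes of 0.20 and -0.60 (edgeR adjusted p = 0.0795 and 0.536).

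**Figure D4:**
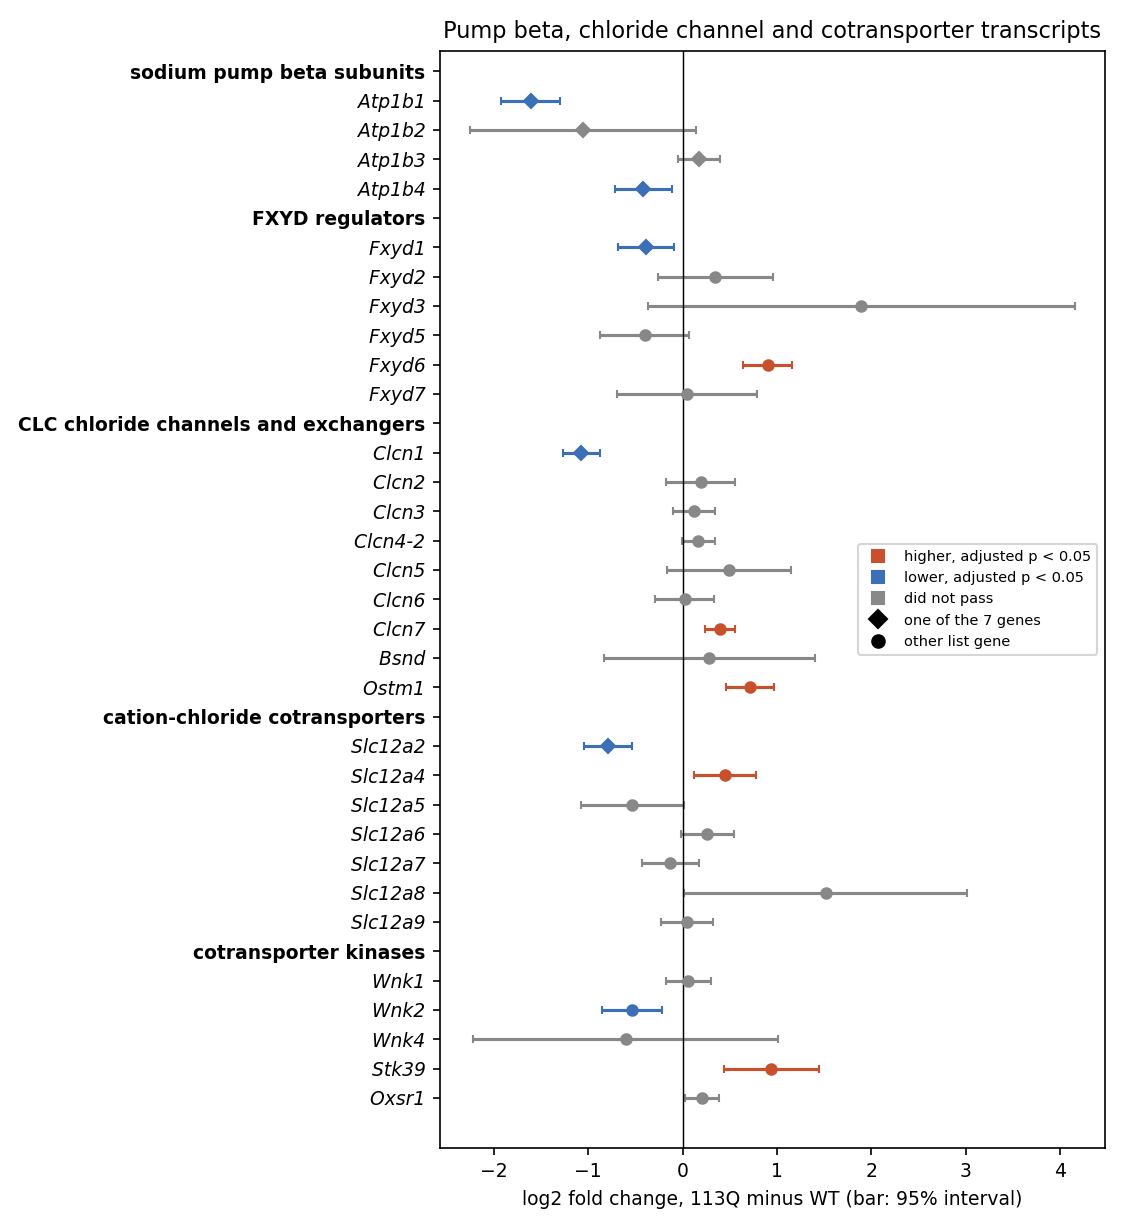
Log2 fold change of 113Q minus WT with its 95% interval (x axis) for each tested gene of the pump beta, FXYD, CLC, cotransporter and kinase lists, coloured by call and with diamonds for the 7 genes. Clcn1 is the single CLC gene well below 0, at -1.07, and Atp1b1 lies lowest of the beta family, at -1.61.

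Of 13 other sodium-coupled transporters tested, 3 rose, 2 fell and 8 did not pass. The sodium-bicarbonate cotransporters Slc4a7 and Slc4a4 fell, from 40.3 ± 6.44 to 15.1 ± 0.572 CPM and from 27.6 ± 5.06 to 10.8 ± 0.485 CPM (edgeR adjusted p = 0.000108 and 0.000229). The sodium-proton exchanger Slc9a2 rose 2.36 times, from 16.1 ± 2.27 to 38.0 ± 1.58 CPM (edgeR adjusted p = 0.000135). Of the list, 10 rose and 2 fell with library totals alone, with a median of 1.12 beside 0.73 over all genes. Of 9 genes whose proteins are known to bear on Clcn1 splicing or on muscle splicing more widely, 3 fell, 0 rose and 6 did not pass. Rbfox1 fell from 244 ± 35.4 to 145 ± 5.58 CPM (edgeR adjusted p = 0.00141) and Mbnl1, the factor lost to repeat RNA in myotonic dystrophy, from 219 ± 12.8 to 157 ± 13.7 CPM (edgeR adjusted p = 0.00475). Hnrnph1 had a log2 fold change of -0.32 (edgeR adjusted p = 0.0184; lost without 113Q mouse 2 or 3) and Mbnl2 of -0.088 (edgeR adjusted p = 0.379). Scaled by library totals alone, Rbfox1, Mbnl1, Hnrnph1 and Mbnl2 were at -0.034, 0.24, 0.40 and 0.63 on the log2 scale. With that scaling 6 of the list rose and 0 fell, with a median of 0.63 beside 0.73 over all genes. The libraries without epithelial transcripts hold 1 113Q mouse against 2 WT mice, so a missed threshold there says little. Some genes that passed over all libraries kept their sign in them, with log2 fold changes of 0.33 for Clcn7, 1.12 for Best3 and 1.21 for Lrrc8b. Clic5, Stk39, Mbnl1 and Hnrnph1 did so at -0.50, 0.65, -0.34 and -0.25. The matching values over all libraries were 0.40, 1.31, 1.29, -0.69, 0.94, -0.48 and -0.32. Wnk4, which did not pass over all libraries, changed sign, from -0.60 over all libraries to 0.53 in those without epithelial transcripts.

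The pattern over the 6 libraries most like that of Clcn1, by Pearson's r of log2 CPM among 10563 genes with a mean of at least 5 CPM, belonged to Mapk12, Smyd1 and D430041D05Rik. Their r was 1.00, 0.999 and 0.999, and 261 genes had an r of at least 0.99. For Atp1b1 the nearest were Ppp1ca, Ak1 and Ndufb9, with an r of 0.999, 0.999 and 0.998, and 108 genes reached 0.99. For Slc12a2 they were Gm16537, Gm12669 and AI464131 at 0.998, 0.996 and 0.995, and 29 genes reached 0.99. All these genes share the 6 libraries and lower levels in the same 3 mice. For Atp1b2, Actr8 and Fam38a had an r of 0.989 and 0.988, and both were highest in mouse 2 of each group. For Atp1b4 the nearest genes were Deptor, Thap6 and Nctc1, at 0.979, 0.970 and 0.968. For Fxyd1 they were 0610010K14Rik, Sgca and Rps28, at 0.990, 0.990 and 0.985, and for Atp1b3 Ppap2a, Arhgap29 and Med13, at 0.989, 0.981 and 0.981.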

How the data were processed

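The authors deposited 1 table of estimated counts per gene, with 1 column per mouse. Per the submitters' processing notes it was made with FastQC 0.10.0, cutadapt, TopHat2 2.0.9, Bowtie2 2.1.0, Cufflinks and Cuffdiff 2.1.1 on build mm10. What annotation, filters and strand setting were used was not given in the sources used here, and an estimate can divide fragments between overlapping genes. Per the labels' protocols, RNA was extracted with Trizol and prepared with a TruSeq mRNA kit.

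Estimated counts (5.38% to 5.96% fractional per library) were rounded. edgeR 4.0.16 in R 4.3.3 was used on all genes (filterByExpr with a minimum count of 10, TMM factors, robust quasi-likelihood F test, two-sided, Benjamini-Hochberg over 16960 genes, threshold 0.05). CPM are scaled by TMM throughout. Each SE was taken as log2 fold change over the root of its F value, and ± marks the SD elsewhere. Per the labels each library is 1 mouse, and a batch is not named. Beta family shares used exon lengths of GENCODE M21 and an exact permutation test. DESeq2 1.42.0 and limma 3.58.1 (voom) were alternatives, with other scalings, filters and thresholds, each mouse left out, a replicate block, and fits that account for libraries with Epcam of at least 1 CPM. The edgeR fit alone was tested on simulated counts, in which few genes changed, about equally up and down. Those counts had no shift in scaling between the groups like the one seen here, so the choice of scaling was not tested.

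The genes and lists were chosen with earlier results of these data known. Named are all 7 genes, up to 4 of each list with the smallest p, and the 3 genes of most similar pattern for each of the 7. Some genes and results that this rule takes in are not reported here. Isoforms, protein and reads were not analysed here.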

Additional observations from a re-analysis of the deposited data

How the results depend on the processing

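Clcn1 and Atp1b1 kept their direction and passed under all 19 other fits. Slc12a2 did so in 18 of 19, the exception being library totals alone (-0.075). With library totals alone Atp1b4 and Fxyd1 reversed, to 0.30 and 0.33, Atp1b3 passed as higher at 0.90, 2 of the 7 genes were lower and 2 higher, and over all genes 710 were lower and 11015 higher against 3078 and 2791. This scaling moved the median of all genes by 0.72.

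Atp1b4 lost its call with upper-quartile factors (-0.37), a term for libraries with epithelial transcripts (-0.44), among the libraries with them (-0.26, WT being 1 mouse) and at a threshold of 0.01 (-0.41). Fxyd1 lost it with limma voom (-0.33), upper-quartile factors (-0.35), no filter (-0.37), no robust estimation (-0.39), the epithelial term (-0.39), among the libraries without (-0.58) or with (-0.21) epithelial transcripts, and at a threshold of 0.01 (-0.39). The cause was not tested. Atp1b2 passed with the epithelial term (-1.30) and among the libraries without such transcripts (-1.10). In those libraries the difference in Atp1b3 share was 21.3 points against 15.6, and 1827 genes were lower and 1300 higher. At a threshold of 0.01, 1962 and 1462 passed. Of the 7 genes, 3 were lower with upper-quartile factors, among the libraries with epithelial transcripts and at a threshold of 0.01.

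Leaving out 1 mouse gave 3 to 4 of the 7 genes lower, -0.55 to -0.33 for Atp1b4 and -0.49 to -0.26 for Fxyd1. It gave -1.40 to -0.56 for Atp1b2, -24.6 to -18.0 points for the Atp1b1 share, 12.9 to 17.1 points for the Atp1b3 share and -2.31 to 3.04 points for the Atp1b2 share.

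The labels do not say that the mouse numbers shared by the groups pair the samples. Deviations from the group means correlated at 0.198, 0.236 and -0.274 for numbers 1, 2 and 3, and 2 of 6 samples correlated best with their own number. With 3 mice per group these values cannot decide whether the samples are paired. With the number as a replicate block Atp1b2 passed (-1.01), Atp1b4 (-0.42) and Fxyd1 (-0.39) did not, and 2583 genes were lower and 2154 higher. No gene of the 7 has a second entry, so summing entries could give no other value. Annotated lengths limit the comparison of levels between genes.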
